A study of Mus musculus with 6 samples.

Results

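The genes described here are 111 protein-coding genes that were higher in ETV6::FRK-induced Ba/F3 cells than in non-induced cells in each of 3 pairs of libraries. They were chosen from the 14238 genes of the deposited count table. A gene was taken when its mean over the 3 non-induced libraries was at least 5 CPM (its reads scaled to the same library total) and its induced CPM was at least 1.5 times the non-induced CPM in every pair. Of 10992 protein-coding genes, 9417 had that mean and are called eligible below, and 133 of them (1.41%) met the ratio in all 3 pairs. From these, 22 were set aside by name, among them Gzmb, Il4ra, Il6, Osm, Irf7, Nlrc5 and members of the Slc, Trim, Parp, Gbp and Oas families, which left 111. Because these ratios chose the genes, every induced against non-induced value below is a description and carries no test.

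Ba/F3 is an established mouse line, labelled as pro-B cells that depend on interleukin-3 (IL3). The cells carried a retroviral Tet-On construct for ETV6::FRK, a fusion of the transcription factor ETV6 with the tyrosine kinase FRK, and non-induced cells carried it too. Induced cells (3 libraries) received 500 ng/ml doxycycline and non-induced cells (3 libraries) received 0 ng/ml, with RNA taken at 48 h. The induced titles also carry IL3n and the non-induced titles IL3p, marks that the protocols do not explain, so doxycycline, the fusion and this mark change together and cannot be told apart. Libraries whose titles begin with the same mark, EF1, EF2 or EFPC, form the 3 pairs, and the labels do not say whether these are separate experiments or clones.

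Library totals were 31138705, 40008727 and 43177842 reads in induced EF1, EF2 and EFPC and 40179759, 30970019 and 36376467 in the non-induced libraries of the same pairs. Etv6, the mouse gene of the fusion's first partner, had 252, 228 and 124 CPM in the induced and 86.1, 82.0 and 94.7 CPM in the non-induced libraries. The difference was smallest in EFPC. Whether these reads come from the fusion or from the cells' own Etv6 was not tested, so they do not measure the induction. Frk was not analysed here. Of 16 pro-B and pre-B marker genes, 3 had a row, Ptprc between 291 and 484 CPM, Cd79b between 5.20 and 14.5 CPM and Cd79a at 2.58 CPM or less, while Pax5 and Ebf1 were not analysed here. The T and NK cell markers with a row, 2 of 12, summed to at most 9.55 CPM, and the fibroblast marker Col1a1 stayed under 1 CPM in every library. Erythroid and megakaryocyte markers with a row, 5 of 8, summed to 392, 299 and 996 CPM in induced EF1, EF2 and EFPC and 386, 281 and 461 CPM in the non-induced libraries. Monocyte and neutrophil markers, 7 of 12, summed to 392, 334 and 66.6 CPM in the induced and 168, 200 and 79.9 CPM in the non-induced libraries. Mast cell and basophil markers, 5 of 10, summed to 645, 677 and 1238 CPM in the induced and 999, 1033 and 1010 CPM in the non-induced libraries. Gata2 carried that sum, with 633, 662 and 1228 CPM in the induced and 995, 1027 and 1007 CPM in the non-induced libraries, while Hdc was lowest in EFPC in each group, with 9.18, 6.30 and 1.92 CPM in the induced and 1.82, 2.29 and 1.18 CPM in the non-induced libraries. Induced EFPC thus had the highest erythroid sum, with Hba-a1 at 599 CPM and Hbb-bt at 129 CPM. In the mast cell list induced EF1 and EF2 lay below the non-induced libraries and induced EFPC above them. Both EFPC libraries were low in the monocyte list. There Mpeg1 had 168, 81.0 and 1.25 CPM in the induced and at most 0.385 CPM in the non-induced libraries. Sums that rest on so few genes do not show cell identity. The part of these marker differences in the results below was not tested.

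Interferons act through receptors that carry JAK kinases. These phosphorylate STAT transcription factors, which bind the interferon-stimulated response element (ISRE) together with IRF9, or the gamma-activated site (GAS) as dimers. The targets include immunity-related GTPases, antiviral proteins and the machinery that loads peptides on MHC class I. Tyrosine kinases and cytokine receptors of blood cells use the same JAKs and STATs, and IL3 signals in mouse cells through beta chains encoded by Csf2rb and Csf2rb2.

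The upstream sequences of several members hold the letters of these elements. Those shown are a selection made after their values were seen. Other members with a match, Pik3c2g, Isg20, Esr1, Lgals9, Tmco4, Mbd5 and Zeb2, are not shown. Each stretch is taken from the 250 bases before an annotated RefSeq start in GRCm38.p6, on the gene's own strand, 5′ to 3′. Capitals mark matches to the ISRE, searched as GAAA, any 2 bases and GAAA, or to the GAS, searched as TTC, any 3 bases and GAA, on both strands. The immunity-related GTPase genes Igtp (chr11:58199486-58199555, plus strand), Irgm2 (chr11:58214877-58214947, plus strand) and Tgtp1 (chr11:48992289-48992359, minus strand) each hold a GAS followed, after 2 bases, by an ISRE:
Igtp: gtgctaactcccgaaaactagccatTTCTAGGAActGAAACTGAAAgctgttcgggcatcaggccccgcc
Irgm2: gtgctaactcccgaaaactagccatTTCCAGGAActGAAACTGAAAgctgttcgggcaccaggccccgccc
Tgtp1: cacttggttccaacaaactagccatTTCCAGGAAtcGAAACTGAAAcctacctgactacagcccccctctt

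Over the 61 positions compared around both sites, Igtp and Irgm2 had 60 letters in common, Igtp and Tgtp1 37, and Irgm2 and Tgtp1 38. Igtp and Irgm2 start 15.4 kb apart. B2m, which encodes the beta-2 microglobulin chain of MHC class I (chr2:122147523-122147582, plus strand), and Ifi203, a DNA-binding protein of the interferon-inducible p200 family (chr1:173942493-173942552, minus strand), hold an ISRE without a GAS in the same window, as do Tdrd7 (chr4:45972081-45972140, plus strand) and the ETS factor gene Elk4 (chr1:132008266-132008325, plus strand):
B2m: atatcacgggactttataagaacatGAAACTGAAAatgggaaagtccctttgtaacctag
Ifi203: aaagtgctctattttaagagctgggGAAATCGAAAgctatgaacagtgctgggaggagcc
Tdrd7: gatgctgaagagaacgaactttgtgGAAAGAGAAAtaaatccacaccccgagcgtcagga
Elk4: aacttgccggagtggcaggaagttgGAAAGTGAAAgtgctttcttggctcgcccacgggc

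Csf2rb2 (chr15:78305722-78305761, minus strand) and the endocytic adaptor gene Ston2 (chr12:91786499-91786557, minus strand) hold a GAS without an ISRE. The GAS of Csf2rb2 begins 15 bases before the annotated start and that of Ston2 96 bases before it:
Csf2rb2: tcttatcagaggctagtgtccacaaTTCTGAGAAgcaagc
Ston2: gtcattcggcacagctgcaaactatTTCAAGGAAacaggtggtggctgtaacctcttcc

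A window was found for 87 of the 111 members (78.4%), so a comparison of motif shares over all members is void, because fewer than 80% could be looked up. For the 17 members that stand in the interferon-response or MHC class I gene lists, 16 had a window. An ISRE was matched in 6 of the 16 genes (37.5%), beside 3.12% of eligible genes and 3.46% of all 27025 genes of the promoter table. A GAS was matched in 4 of the 16 (25%), beside 7.15% of eligible genes and 8.13% of all genes. The 16 genes had 20 windows and the 7701 eligible genes with a window had 9785. The lists were made of known interferon-response and MHC class I genes. The choice of the lists alone could bring high shares of these elements, so nothing is read from them about the members.

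For the other letters searched, the NF-kB string, GGGA, any 4 bases and CC, was in 37.5% of the 16 genes and 25.7% of eligible genes (19.7% of all genes). The STAT6-type GAS, with 4 bases between TTC and GAA, was in 12.5% and 5.36% (6.76% of all), and the GC box GGGCGG in 31.3% and 65.8% (35.4% of all). The E-box CACGTG was in 6.25% and 10.4% (6.86% of all). TCACGTG, which contains that E-box, the ETS string CCGGAAG and the FOXO string TGTTTAC were in 0 of the 16 genes, beside 6.31%, 18.5% and 2.60% of eligible genes in that order, and 3.58%, 7.83% and 3.54% of all genes. These are matches of letters in a short window and not binding sites.

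Across the 111 genes the median CPM ratio was 2.33 in EF1, 2.37 in EF2 and 1.77 in EFPC. On the log2 scale these medians were 1.22, 1.24 and 0.82, beside -0.08, -0.01 and 0.00 over the eligible genes. The share of eligible genes at a ratio of 1.5 or more was 9.70% in EF1, 15.7% in EF2 and 6.63% in EFPC. EFPC gave the lowest of the 3 ratios for 70 of the members, EF1 for 22 and EF2 for 19. Together the members took 2.53%, 2.36% and 1.42% of the reads in induced EF1, EF2 and EFPC and 0.736%, 0.832% and 0.634% in the non-induced libraries. In bulk RNA, more cells that express a gene and more RNA of it per cell cannot be told apart.

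In 98 of the 111 members every induced library lay above every non-induced library, while 1114 of 9417 eligible genes (11.8%) did so; since the same contrast chose the members, nothing is read from this. The remaining 13, Gpr34, Tap1, Ube2l6, H2-T24, Fbxl12, Tgm2, B2m, Trp53inp1, Pik3c2g, H2-Q4, Isg20, Psmb9 and Csf1, had groups that overlapped. In 43 members the lowest induced library was at least 1.5 times the highest non-induced library. Any eligible gene that does so also meets the ratio of the rule, so nothing is read from this count. The ratio reached 2 in every pair for 19 members and 3 in every pair for 6, namely Ifi27l2a, Tdrd7, Ston2, Ear6, Ifi203 and Ffar2. Counting error alone, taken as a 95% interval of each ratio from its read counts, left all 111 above 1 in each pair and 67 above 1.5 in each pair. The lowest read count of a member in a library was 47, and the median over members of their lowest count was 680.

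By edgeR's quasi-likelihood test over 13260 genes, 0 of the 111 members were called higher (0% of all genes tested), with 108 at an unadjusted p under 0.05 (9.34% of all genes tested were higher and 8.23% lower at that level). DESeq2 called 103 members higher, beside 4.25% called higher and 2.65% called lower of the 13122 genes with an adjusted p. With the replicate number as a block DESeq2 called 110 members higher, beside 6.4% called higher and 4.73% called lower of 12029 genes. These counts only restate the choice of the genes. Without pair EFPC, edgeR called 106 of them higher, beside 9.81% called higher and 6.37% called lower of 13258 genes. Without the induced EFPC library alone it called 84, beside 4.63% called higher and 2.04% called lower of 13356 genes.

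**Figure D1:**
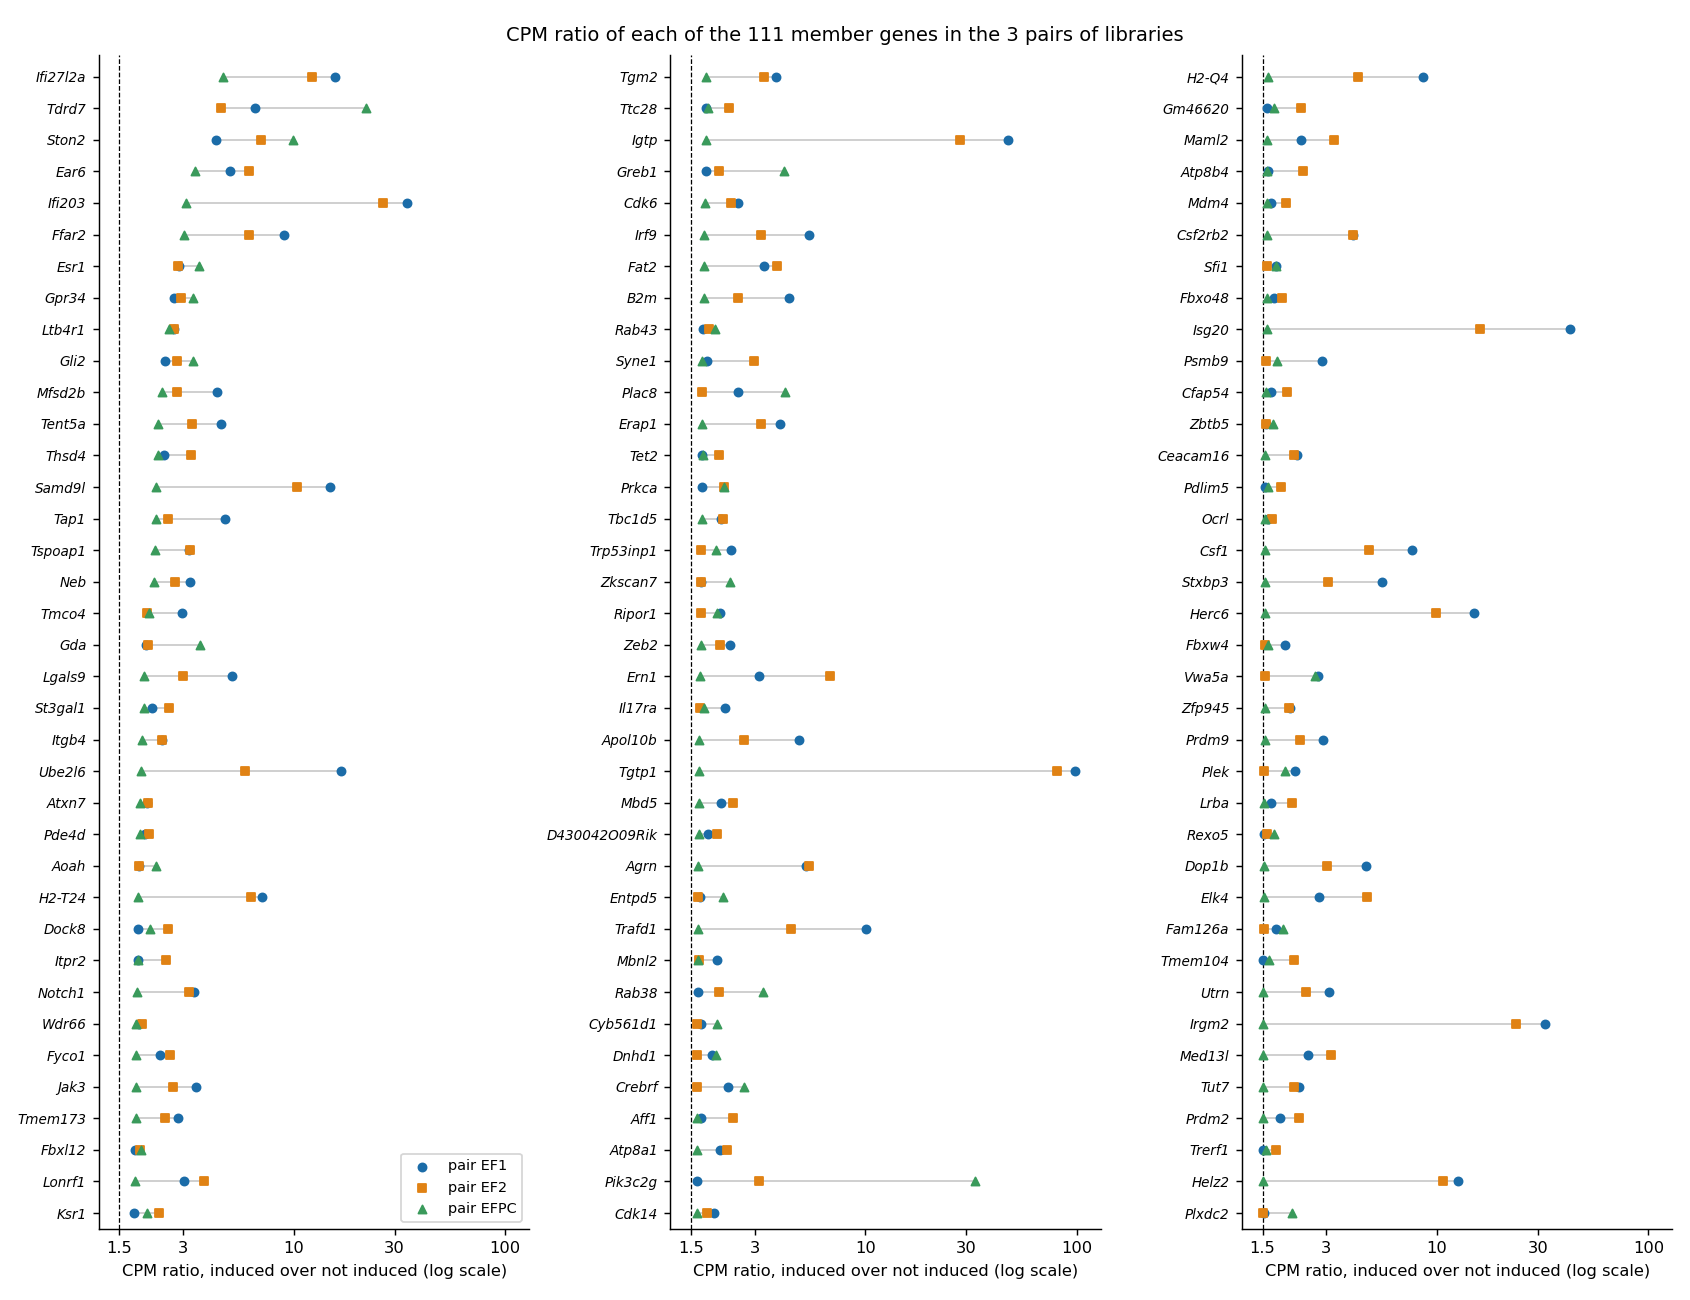
CPM ratio of induced over non-induced cells for each of the 111 members (rows, ordered by their lowest ratio) in pairs EF1 (circles), EF2 (squares) and EFPC (triangles), on a log axis with a dashed line at 1.5. EFPC gives the lowest ratio for 70 members, and Tgtp1 has the highest ratios, 98.3 in EF1 and 81.0 in EF2.

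The ratios by pair are described for 2 sets of members, those in the interferon or MHC class I lists and the others, which were mixed. The 17 members of the interferon and MHC class I lists had median ratios of 12.6 in EF1, 6.27 in EF2 and 1.73 in EFPC, and EFPC was below both other pairs in 16 of them. The 94 other members had medians of 2.11, 2.24 and 1.79, with EFPC below both other pairs in 54 and above both in 22. The 3 ratios lay within 1.5 times of each other in 60 of these 94 genes and in 0 of the 17. Over the 111 members, the log2 ratios of EF1 and EF2 had a Pearson correlation of 0.92, those of EF1 and EFPC 0.03 and those of EF2 and EFPC 0.10. The same correlations were 0.81, 0.19 and 0.22 over the 9417 eligible genes. No library is shared between pairs, but the 1.5-fold minimum truncates the members' values, and genes are not independent replicates. In EFPC, 227 of 545 eligible genes that reached 1.5 in EF1 and EF2 only had a ratio under 1.

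**Figure D2:**
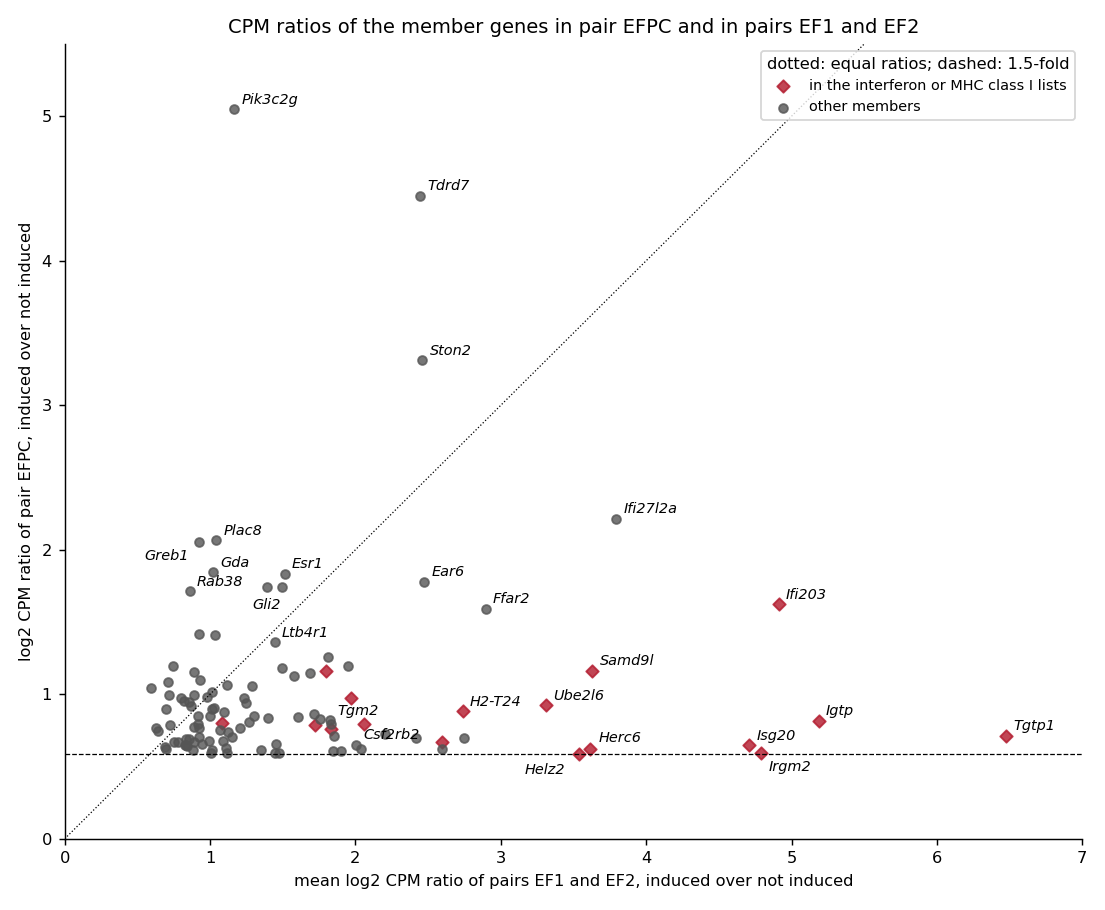
Log2 CPM ratio in pair EFPC (vertical axis) against the mean log2 ratio of pairs EF1 and EF2 (horizontal axis) for the 111 members. The diamonds of the interferon and MHC class I lists run along the 1.5-fold line at the right, where Tgtp1, Igtp and Irgm2 stand, while Pik3c2g and Tdrd7 stand highest in EFPC.

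The members with the highest lowest ratio were mostly not on the interferon list. That list does not hold every interferon-inducible gene, so this does not place them outside the interferon response. Tdrd7, a tudor-domain protein of cytoplasmic RNA granules, had 157, 109 and 409 CPM in induced EF1, EF2 and EFPC and 23.9, 24.1 and 18.7 CPM in the non-induced libraries. Its non-induced libraries were close together, every induced library was above them, and the highest was EFPC, with ratios of 6.54, 4.54 and 21.9. Ston2, whose product sorts vesicle proteins into clathrin-coated pits, had 38.3, 71.8 and 51.3 CPM in the induced and 8.91, 10.2 and 5.17 CPM in the non-induced libraries. The groups did not overlap, and the ratios were 4.30, 7.03 and 9.92. Ear6, a ribonuclease of the eosinophil-associated family whose close relatives can share its reads, had 34.9, 77.4 and 22.9 CPM in the induced and 6.99, 12.5 and 6.68 CPM in the non-induced libraries, again without overlap.

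Ifi27l2a, a small interferon-inducible membrane protein that was not in the interferon list used here, had the highest lowest ratio of all members, 4.64. It had 106, 99.2 and 8.29 CPM in the induced and 6.72, 8.10 and 1.79 CPM in the non-induced libraries. The level in EFPC was low in both groups, so that induced EFPC only just exceeded the highest non-induced library. Ifi203 had 338, 216 and 10.01 CPM in the induced and 9.91, 8.14 and 3.24 CPM in the non-induced libraries, with ratios of 34.2, 26.6 and 3.08. Its lowest induced library was only 1.01 times its highest non-induced one, and related p200 genes can share its reads.

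Of the receptors, Ltb4r1, Gpr34 and Esr1 had even ratios in the 3 pairs. Ltb4r1, the receptor of the leukocyte attractant leukotriene B4, had 16.3, 17.1 and 17.9 CPM in the induced and 6.0, 6.26 and 6.96 CPM in the non-induced libraries. Both groups were tight, and the ratios were 2.72, 2.73 and 2.57, each with a 95% counting interval between 2.22 and 3.21. Gpr34, a receptor of lysophosphatidylserine, had 47.1, 160 and 154 CPM in the induced and 17.3, 54.8 and 46.1 CPM in the non-induced libraries. Here EF1 was low in both groups, which made the groups overlap, while the ratios were 2.72, 2.92 and 3.34. Esr1, the estrogen receptor alpha, had 41.7, 47.0 and 27.6 CPM in the induced and 14.6, 16.5 and 7.75 CPM in the non-induced libraries, without overlap and with ratios of 2.87, 2.85 and 3.56. Ffar2, a receptor of short-chain fatty acids, was less even, with 169, 177 and 40.6 CPM in the induced and 18.8, 28.7 and 13.5 CPM in the non-induced libraries. EFPC was lowest in both groups of Ffar2, and the groups did not overlap.

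Greb1, a gene known as estrogen-responsive in human breast cancer cells, had 562, 752 and 594 CPM in the induced and 320, 368 and 143 CPM in the non-induced libraries. Its induced libraries lay above all non-induced ones, and the higher ratio of EFPC, 4.15 against 1.76 and 2.04, came with a low non-induced EFPC library rather than a high induced one. Plac8, a small cysteine-rich protein of myeloid and lymphoid cells, showed the same arrangement, with 1166, 1193 and 932 CPM in the induced and 468, 703 and 222 CPM in the non-induced libraries. Pik3c2g, a class II phosphoinositide 3-kinase catalytic subunit, differed in that induced EFPC itself was far above the rest. It had 50.4, 316 and 1602 CPM in the induced and 31.6, 100 and 48.5 CPM in the non-induced libraries, ratios of 1.6, 3.15 and 33.1. The induced EF1 library of Pik3c2g was below the non-induced EF2 library, so its groups overlap.

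Among cytokine receptors and their ligands, 2 of the 35 eligible receptor genes were members, Csf2rb2 and Il17ra. Csf2rb2, the beta chain that in mice serves the IL3 receptor, had 2556, 2815 and 1125 CPM in the induced and 638, 699 and 717 CPM in the non-induced libraries. The non-induced libraries were alike, and induced EFPC was the lowest of the 3 induced libraries yet 1.57 times the highest non-induced one. Its near-identical neighbour Csf2rb, which can share reads with it, missed the rule with ratios of 4.05, 4.13 and 1.42. Il17ra, the chain common to interleukin-17 receptors, had 160, 110 and 95.2 CPM in the induced and 73.8, 66.5 and 55.0 CPM in the non-induced libraries, without overlap. DESeq2 called 6 of 39 receptor genes higher and 0 lower, and edgeR 0. Over all genes with an adjusted p, DESeq2 called 4.25% higher and 2.65% lower. Each list count below stands beside these shares, and no list was tested against them.

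Csf1, the macrophage growth factor, was the single member of 9 eligible cytokine genes. It had 45.2, 44.5 and 1.99 CPM in the induced and 5.90, 9.30 and 1.29 CPM in the non-induced libraries. Both EFPC libraries were low, at 86 and 47 reads in induced and non-induced cells, and the ratio there, 1.54, had a 95% counting interval of 1.07 to 2.25. DESeq2 called 0 of 12 cytokine genes higher and 1 lower. Jak3, the kinase that pairs with the common gamma chain of cytokine receptors, was the member of 29 eligible JAK-STAT genes. It had 172, 151 and 82.5 CPM in the induced and 50.1, 56.0 and 45.9 CPM in the non-induced libraries, and the groups did not overlap. DESeq2 called 6 of 30 JAK-STAT genes higher and 0 lower, beside 4.25% and 2.65% of all genes. The list's median log2 ratios were 0.21, 0.29 and 0.09 in EF1, EF2 and EFPC.

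**Figure D3:**
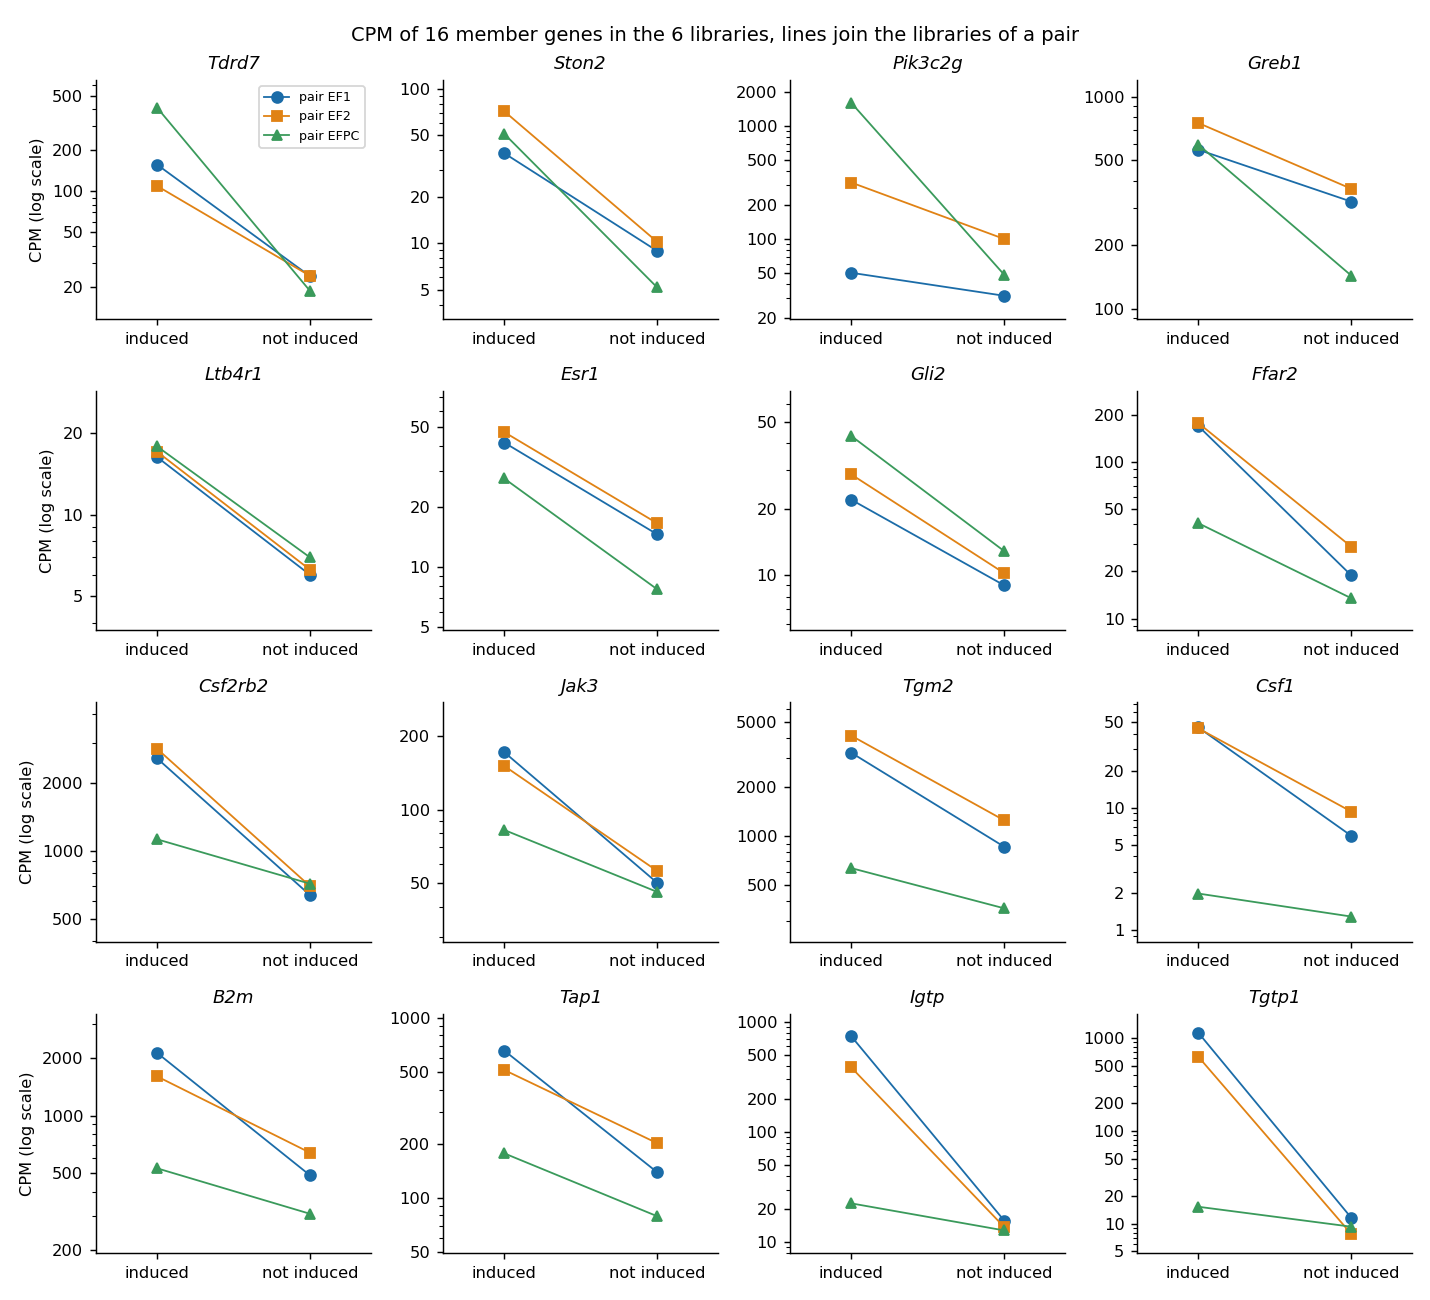
CPM (log axes, a scale for each panel) of 16 members in induced (left) and non-induced (right) cells, with a line joining the libraries of each pair. Lines run nearly parallel in Ltb4r1 and Esr1, whereas in Igtp and Tgtp1 the EFPC line is flat beside the EF1 and EF2 lines, and in Pik3c2g and Tdrd7 it is the steepest.

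Of the interferon list, 60 of 70 genes had a row, 50 were eligible and 11 were members: Irf9, Isg20, Igtp, Irgm2, Samd9l, Herc6, Ube2l6, Lgals9, Tgtp1, Helz2 and Ifi203. DESeq2 called 43 of the 60 higher and 0 lower, beside 4.25% and 2.65% of all genes, and edgeR called 0. Among the 50 eligible genes, 44 reached a ratio of 1.5 in EF1 and 41 in EF2, but 14 in EFPC, so that EFPC decided which of them are members. The list's median log2 ratios were 2.64, 1.87 and 0.32. Its summed level was 27476, 18689 and 9108 CPM in induced EF1, EF2 and EFPC, and between 5965 and 7670 CPM in the non-induced libraries.

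The immunity-related GTPases, which disrupt the vacuoles of intracellular pathogens in mice, had 3 members, Tgtp1, Igtp and Irgm2, in which the EFPC log2 ratio lay farthest below the mean of EF1 and EF2 among the 111 genes. Tgtp1 had 1132, 625 and 15.1 CPM in the induced and 11.5, 7.72 and 9.24 CPM in the non-induced libraries, ratios of 98.3, 81.0 and 1.64. Igtp had 740, 386 and 22.5 CPM in the induced and 15.7, 13.7 and 12.8 CPM in the non-induced libraries, ratios of 47.1, 28.1 and 1.76. In both genes even induced EFPC lay above all non-induced libraries. Irgm2 had ratios of 32.4, 23.6 and 1.51. Tgtp1 has the near-identical copy Tgtp2, at 79.5, 53.1 and 1.29, and reads may be split between these genes in a way that the sources used here do not give.

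Samd9l, an antiviral and growth-restraining protein, had 351, 226 and 63.2 CPM in the induced and 23.8, 21.8 and 28.2 CPM in the non-induced libraries, without overlap. Lgals9, the secreted lectin galectin-9, had 390, 245 and 132 CPM in the induced and 75.9, 82.3 and 67.0 CPM in the non-induced libraries, also without overlap. Ube2l6, an enzyme that conjugates the ubiquitin-like protein ISG15, had 315, 183 and 29.7 CPM in the induced and 18.8, 30.9 and 15.6 CPM in the non-induced libraries. Its induced EFPC library lay just below the non-induced EF2 library.

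Irf9, Isg20, Herc6 and Trafd1 were picked with their values in view. Irf9, a DNA-binding partner of STAT factors, had 113, 98.9 and 33.7 CPM in the induced and 20.8, 30.8 and 19.5 CPM in the non-induced libraries, with ratios of 5.41, 3.21 and 1.73. Isg20, an exonuclease that degrades RNA, had ratios of 42.7, 16.1 and 1.57, and Herc6, a ubiquitin ligase that in mice attaches ISG15, had 15.1, 9.94 and 1.53. Trafd1, a zinc finger protein that dampens innate signalling and was in none of the lists, had 10.1, 4.46 and 1.62.

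Of the MHC class I list, 21 of 24 genes were eligible and 6 were members: H2-T24, H2-Q4, B2m, Tap1, Erap1 and Psmb9. DESeq2 called 9 of 22 higher and 0 lower, beside 4.25% and 2.65% of all genes, and edgeR 0. B2m had 2126, 1603 and 531 CPM in the induced and 488, 641 and 307 CPM in the non-induced libraries. Tap1, which carries peptides into the endoplasmic reticulum, had 659, 514 and 177 CPM in the induced and 139, 201 and 79.1 CPM in the non-induced libraries. In both genes EFPC was lowest in each group, and induced EFPC lay within the range of the non-induced libraries, so the groups overlapped.

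Erap1, which trims those peptides, had 141, 117 and 83.3 CPM in the induced and 35.9, 36.3 and 49.1 CPM in the non-induced libraries. It was a class I member without overlap, with ratios of 3.94, 3.21 and 1.70. H2-T24, a non-classical heavy chain whose relatives can share its reads, had ratios of 7.09, 6.27 and 1.84. Tap1 and Psmb9, a subunit of the immunoproteasome, start 5.53 kb apart on chromosome 17, and the ratios of Psmb9 were 2.86, 1.56 and 1.75. The class I heavy chain gene H2-D1 came just under the rule in EFPC, at 1.48.

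Pde4d and Itpr2, which act in second-messenger signalling, had ratios within 1.5 times across the 3 pairs. Pde4d, which hydrolyses cyclic AMP, had 18.7, 18.9 and 13.5 CPM in the induced and 9.48, 9.17 and 7.26 CPM in the non-induced libraries, ratios of 1.97, 2.06 and 1.87. Itpr2, a calcium release channel of the endoplasmic reticulum, had 43.1, 54.7 and 54.4 CPM in the induced and 23.6, 22 and 29.6 CPM in the non-induced libraries. Neither gene's groups overlapped, and these were the 2 members among 33 eligible genes of the ion channel and excitability list. Of the 39 genes of that list that were tested, eligible or not, DESeq2 called 4 higher and 0 lower. Its shares over all genes were 4.25% higher and 2.65% lower. Dock8, which activates the GTPase CDC42 in leukocytes, had 331, 399 and 465 CPM in the induced and 181, 156 and 223 CPM in the non-induced libraries. Rab38, a GTPase of lysosome-related organelles, had 82.6, 125 and 112 CPM in the induced and 51.1, 61.1 and 34.3 CPM in the non-induced libraries, with its highest ratio, 3.28, in EFPC. Dock8 was the member of the cytoskeleton list, where DESeq2 called 1 of 54 genes higher and 3 lower, and Rab38 that of the GTPase list, with 8 of 60 higher and 1 lower. Of the remaining members of this kind, chosen after their values were seen, the kinase Prkca had ratios of 1.69, 2.16 and 2.14. The Raf and MEK scaffold Ksr1 had 1.77, 2.32 and 2.02, and Plek, a protein kinase C substrate of blood cells, had 2.13, 1.53 and 1.92.

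Members that act on transcription, chromatin or RNA were spread over several lists. Gli2, a zinc finger factor of hedgehog signalling, had 22.1, 28.8 and 43.1 CPM in the induced and 9.01, 10.2 and 12.9 CPM in the non-induced libraries. EFPC was highest in both groups, and the ratios were 2.45, 2.81 and 3.34. Zeb2, a repressor that blood cells need for maturation, had 62.7, 48.1 and 68.7 CPM in the induced and 27.4, 23.3 and 41.2 CPM in the non-induced libraries. Zeb2 was the member of the blood cell transcription factor list. There DESeq2 called 4 of 47 genes higher and 3 lower, beside 4.25% and 2.65% of all genes. Tet2, which oxidises methylated cytosine, had 34.1, 34.7 and 33.1 CPM in the induced and 20.2, 17.1 and 19.4 CPM in the non-induced libraries, both groups being tight. Prdm2, a histone methyltransferase family member, had ratios of 1.81, 2.23 and 1.51, and its lowest induced library was 1.03 times its highest non-induced one.

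Tet2 and Prdm2 were the 2 members among 59 eligible chromatin regulators. That list reached 1.5 in 25 genes in EF1, 40 in EF2 and 3 in EFPC. DESeq2 called 12 of 60 higher and 0 lower, beside 4.25% and 2.65% of all genes. Tent5a, a non-canonical poly(A) polymerase, had 38.5, 35.7 and 21.0 CPM in the induced and 8.49, 10.8 and 9.15 CPM in the non-induced libraries. Its groups were well apart, with the lowest induced library 1.94 times the highest non-induced one. Elk4, chosen here after its values were seen for the ISRE shown above, had 38.4, 35.9 and 36.2 CPM in the induced and 13.9, 7.65 and 23.8 CPM in the non-induced libraries. Its induced libraries were nearly equal, and the spread of its ratios, 2.77, 4.69 and 1.52, came with that of the non-induced libraries.

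Among genes of adhesion, membranes and the cell surface, Tgm2, a transglutaminase that cross-links proteins, had 3251, 4137 and 636 CPM in the induced and 860, 1250 and 360 CPM in the non-induced libraries. Induced EFPC lay below the non-induced EF1 and EF2 libraries, although the ratio within EFPC was 1.77. Notch1, a receptor that controls lymphoid fate, had 25, 23.8 and 16.7 CPM in the induced and 7.42, 7.43 and 9.18 CPM in the non-induced libraries, without overlap. Maml2, a coactivator of Notch receptors that was chosen after its values were seen, had ratios of 2.29, 3.28 and 1.58. Mfsd2b, a sphingosine-1-phosphate exporter of red cells and platelets, had 31.4, 15.6 and 9.87 CPM in the induced and 7.19, 5.52 and 4.12 CPM in the non-induced libraries.

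Atp8b4, a P4-type ATPase of the phospholipid flippase family, had ratios of 1.59, 2.32 and 1.57. Trp53inp1, a p53-induced gene of the stress response, had 61.9, 71.7 and 39.7 CPM in the induced and 26.6, 42.8 and 20.1 CPM in the non-induced libraries. Its EFPC libraries were low in both groups, so the groups overlapped. Notch1, Atp8b4 and Trp53inp1 were the members of the adhesion, lipid transport and p53 lists. In these DESeq2 called 4 of 40, 4 of 53 and 2 of 31 genes higher and 0 lower. Its shares over all genes were 4.25% higher and 2.65% lower, so nothing is read from these counts. Of further members, chosen after their values were seen, the integrin chain gene Itgb4 had 2.38, 2.38 and 1.91, the sialyltransferase gene St3gal1 had 2.15, 2.57 and 1.96, and Thsd4, of the extracellular matrix, had 2.43, 3.26 and 2.27, each within 1.5 times across the pairs. By contrast, Agrn, a basement membrane proteoglycan, had 5.22, 5.44 and 1.62, and Ern1, the endoplasmic reticulum stress sensor IRE1 alpha, had 3.13, 6.79 and 1.65.

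The 23 gene lists held 31 of the 111 members, and 80 members were in none of them. EdgeR called 0 genes in each list. No member was found in the lists for NF-kB, MAPK feedback, tyrosine kinase signalling, lysosome, autophagy, FOXO and quiescence, MHC class II, immune surface molecules, ubiquitin and proteolysis, or mast cell granules. In the NF-kB list, 13, 4 and 1 of 38 eligible genes reached 1.5 in EF1, EF2 and EFPC, and in the FOXO list 8, 4 and 8 of 33 did. DESeq2 called 1 of 44 NF-kB genes higher and 1 lower, and 4 of 34 FOXO genes higher and 1 lower. Its shares over all genes were 4.25% higher and 2.65% lower.

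The members at the edge of the rule were Plxdc2, a plexin-domain membrane protein, with ratios of 1.52, 1.504 and 2.06, Helz2, a helicase coactivator, with 12.6, 10.7 and 1.504, and Trerf1, a zinc finger factor, with 1.51, 1.73 and 1.55. Just outside were Fam53b, with 1.62, 1.55 and 1.499, Hdac7, a class IIa histone deacetylase, with 1.496, 2.13 and 10.9, and Gabpb2, a subunit of the ETS factor GABP, with 1.493, 2.15 and 1.59.

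Members covered longer stretches of the genome than other genes. Genomic span, from the RefSeq gene table of GRCm38.p6, was known for 110 of the 111, with a median of 53.8 kb, beside 22.96 kb for the eligible genes. Of the 110, 36 (32.7%) spanned 100 kb or more, against 10.3% of eligible genes. The 110 genes that were lower by the same rule turned round, with none set aside by name, had a median of 14.4 kb, and 6.36% of them spanned 100 kb or more. Pde4d (chromosome 13, 108654177 to 109955969), Cdk14 (chromosome 5, 4803384 to 5380251), a cyclin-dependent kinase, and Lrba (chromosome 3, 86223456 to 86782694), a vesicle-trafficking protein, were the longest members. Cdk14 and Lrba were picked with their values in view.

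The 17 interferon and MHC class I members had a median span of 9.67 kb and the 94 others, 93 of them with a known span, 71.5 kb. Median transcript length, from GENCODE, was 4972 bases for members, 3114 for eligible and 2193 for lower genes. Members had a median non-induced level of 24.1 CPM, against 48.2 CPM for the eligible genes.

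The same shift with span was present over all eligible genes. The quartile of longest span held 57 members (2.43% of its genes), while the other quartiles, from the shortest up, held 18, 20 and 15 (0.765%, 0.851% and 0.638%). From the shortest to the longest quartile, the median log2 ratio was -0.22, -0.13, -0.07 and 0.11 in EF1, and -0.31, -0.10, 0.08 and 0.33 in EF2. In EFPC it was -0.04, -0.02, 0.00 and 0.05. The libraries of 1 group differed in this too. On log2 CPM centred for each gene over the 6 libraries, the longest minus the shortest quartile was 0.17, 0.15 and 0.20 in induced EF1, EF2 and EFPC and -0.16, -0.47 and 0.08 in the non-induced libraries. The part of this library difference in the ratios of long members was not tested.

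**Figure D4:**
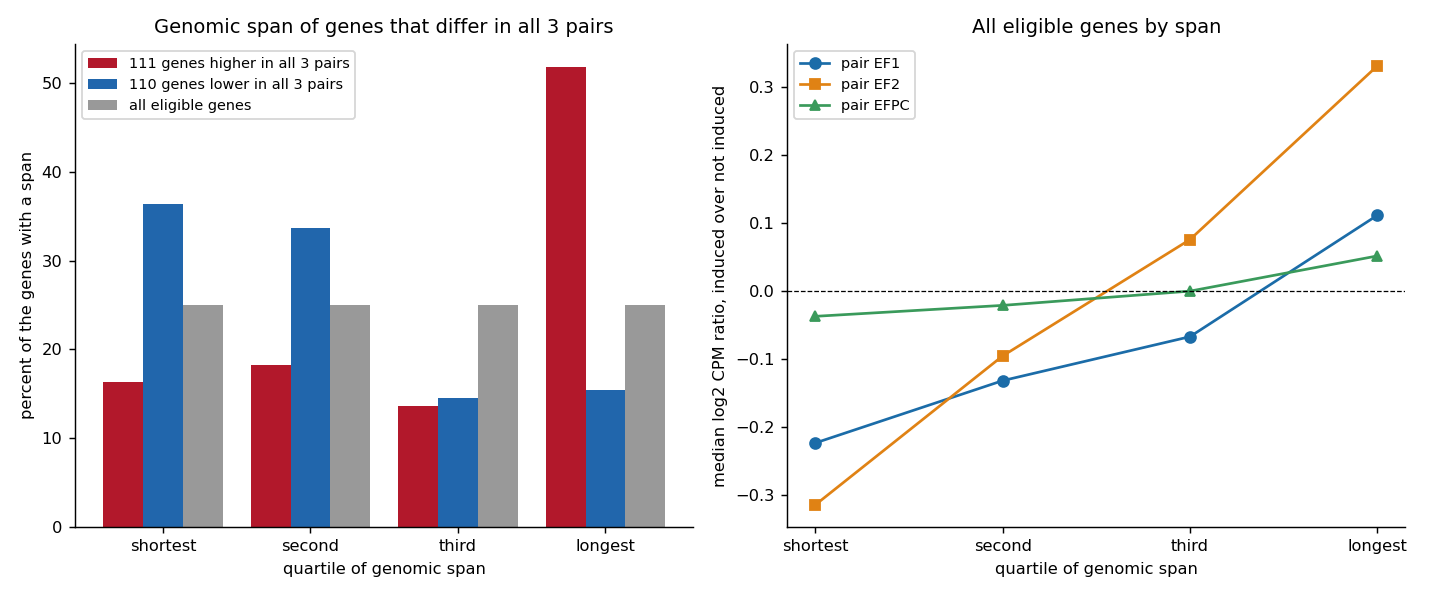
Left, share of the members, of the 110 genes lower in all 3 pairs and of all eligible genes in each quartile of genomic span. Right, median log2 CPM ratio of all eligible genes in each quartile for the 3 pairs: the longest quartile holds 57 of 110 members with a span, and the median there is 0.11 in EF1, 0.33 in EF2 and 0.05 in EFPC.

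The 110 members with a position lay on all autosomes and the X, with 14 on chromosome 11 (1.73% of its 810 eligible genes), 10 each on chromosomes 2 and 5 and 9 on chromosome 17 (1.77% of 508). Besides Igtp with Irgm2 and Psmb9 with Tap1, 2 pairs of members started within 100 kb of each other. These were Fbxo48 with Plek at 19.98 kb and Lgals9 with Ksr1 at 50.5 kb, both on chromosome 11. The ratios of neighbours were unlike in Lgals9 (5.13, 2.98 and 1.97) and Ksr1 (1.77, 2.32 and 2.02).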

How the data were processed

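RNA of 6 cultures was made into libraries with a stranded mRNA kit (TruSeq), per the labels' protocols. The submitters' processing notes name HISAT2, DESeq2 and the build mm10 but no versions, and the program and annotation behind the counts are not given. The authors deposited whole-number read counts per gene, which were used here, and TPM values, which served as an alternative. The 6 FPKM columns, the regularised log2 values, and the authors' deposited fold change score, p-value and mean signal columns were not used. All 14238 genes have a read in every library, so genes at 0 in any library were not analysed here.

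CPM was computed from the counts by column total, and ratios within pairs. The members and gene lists were chosen with earlier results of these data known. Fits across genes, tested on simulated data, used edgeR 4.0.16 (quasi-likelihood, TMM, filterByExpr, Benjamini-Hochberg adjustment, threshold 0.05) with group as the only term and DESeq2 1.42.0 as an alternative, in R 4.3.3. The simulated replicates were alike, with no pair that differed as EFPC does, so the simulation does not cover that setting. The labels do not say how separate the cultures were, so p-values reflect spread that may be technical, and counting intervals cover counting error only. Pairs follow the title marks, which match the replicate numbers. Deviations of same-numbered libraries had r of 0.17, 0.34 and 0.35 over 13260 genes, and differently numbered libraries were not compared. The main fit did not use the pairing, and a replicate block was an alternative. Genes were named by a rule: the 12 members with the highest lowest ratio, the 6 with most induced reads, up to 4 per list, 3 on each side of the threshold, and 3 at each extreme of EFPC against the other pairs. Of the gene IDs, 14205 (99.8%) matched GRCm38.p6, whose upstream sequences come from RefSeq. Use of strand in counting, and the treatment of reads shared by near-identical genes such as Tgtp1 or H2-Q4, are not given.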

Additional observations from a re-analysis of the deposited data

How the results depend on the processing

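The rule gave 111 genes and, at a ratio of 2, 19. Requiring the lowest induced library to be 1.5 times the highest non-induced one gave 43. Leaving out a pair gave 145 to 639 genes, with 639 without pair EFPC and 201 without EF1, so the EFPC pair limits the membership most. TMM scaling gave 108 genes (98 of the 111 among them), DESeq2 size factors 115 (102) and the authors' TPM 148 (102). A minimum of 1 or 10 CPM gave 159 or 87. Under these 3 scalings 13, 9 and 9 members came under 1.5, the lowest at 1.289, and 40 of 43 named members stayed at 1.5 or more under each. The named members Irgm2, Helz2 and Prdm2 came under 1.5 in all 3 scalings, with lowest ratios between 1.46 and 1.49. TPM moved the median log2 ratio of eligible genes in EF2 to 0.21. EdgeR called 0 genes of all tested and DESeq2 906 (558 higher, 348 lower). With the replicate block edgeR called 0 and DESeq2 1339. Leaving out libraries gave edgeR counts of 0 to 2144, with 892 without induced EFPC and 2144 without the EFPC pair. Of the members, DESeq2 called 103 and, with the replicate block, 110, while edgeR with a library or pair left out called 0 to 106 (84 without induced EFPC, 106 without its pair). Without the low-count filter or with DESeq2 size factors edgeR called 0 genes. The cause of the gap between edgeR and DESeq2 was not tested. With 3 libraries a group, an edgeR count of 0 does not show that genes were alike.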

Other observations

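Genes that met the ratio in each pair but not another condition of the rule give further values, with no test. Of 1575 protein-coding genes under 5 CPM in non-induced cells, 107 were at 1.5 or more in every pair. Of these 107, Mpeg1 and Hdc are described above with the cell type markers, and Iigp1 with the immunity-related GTPases. Of 686 genes of other biotypes with at least 5 CPM, 14 met the ratios, 7 of them lncRNA genes and 7 pseudogenes or transcribed pseudogenes, and those named next were chosen after their values were seen. Trp53cor1, the lincRNA-p21 gene, had 21.8, 27.4 and 6.79 CPM in induced EF1, EF2 and EFPC and 8.34, 8.81 and 3.33 CPM in the non-induced libraries. Firre, a nuclear lncRNA, had 47.4, 62.1 and 49.4 CPM in the induced and 31.0, 30.4 and 29.1 CPM in the non-induced libraries, without overlap. H2-T10, annotated as a transcribed pseudogene of the class I region whose relatives can share its reads, had 61.8, 38.8 and 9.10 CPM in the induced and 7.84, 10.6 and 4.76 CPM in the non-induced libraries. A further 357 eligible genes reached 1.5 in EFPC but in neither EF1 nor EF2.

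Per length, by the authors' TPM, B2m and Plac8 had the highest mean levels among the members, with 3235 TPM and 3001 TPM in induced cells and 993 TPM and 1138 TPM in non-induced cells. Tgtp1 had a mean of 411 TPM in induced and 6.19 TPM in non-induced cells, a mean that EF1 and EF2 carry.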
